A study of Mus musculus with 23 samples.

Results

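The 150 genes described here are those whose RNA was highest, relative to every other time sampled, in wild-type mouse macrophages exposed to lipopolysaccharide (LPS) for 8 h. They were chosen from the counts themselves. Normalised counts (CPM, a gene's count per 1000000 counts of its library) were averaged over the 3 wild-type libraries of each time, and genes with at least 10 CPM at 8 h were kept, which left 7822 of the 55401 genes in the table. The kept genes were ranked by the ratio of the 8 h mean to the highest of the 0, 4 and 24 h means, with 1 CPM added to each, and the first 150 were taken. The wild-type values therefore describe these genes and test nothing about them.

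The study profiled RNA from bone marrow-derived macrophages, which are macrophages grown from marrow in culture, of mice of 2 genotypes, wild-type and a group that the labels call Selenow knock-out. Cells of each genotype were untreated (0 h) or had been given LPS at 100 ng/ml for 4, 8 or 24 h. The labelled knock-out at 24 h had 2 libraries and the other 7 groups had 3 each. The labels give neither the age nor the sex of the mice nor what separates the replicates, so p-values measure only the spread between these libraries, which may be technical, and no untreated library carries a later time, so LPS and time in culture cannot be told apart. Replicates carry running numbers from 1 to 23, and values are printed below in the order of those numbers (0 h wild-type 1 to 3, labelled knock-out 13 to 15, and so on by time).

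LPS, a component of the outer membrane of Gram-negative bacteria, signals through Toll-like receptor 4 to NF-kB, AP-1 and interferon regulatory factors. Immediate early genes and many cytokines are transcribed within the first hours, after which feedback inhibitors, RNA decay and secreted interferon reshape the response. Stress programmes run alongside it: heat shock factor 1 drives chaperone genes when proteins misfold, NRF2 drives antioxidant and haem-degrading enzymes under oxidative or electrophilic stress, and the integrated stress response slows translation.

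Library totals ran from 39001456 to 41819953 counts. Selenow, which encodes selenoprotein W and is not among the 150 genes (rank 216), was at 31.7% to 63.3% of the wild-type mean of its time in 7 labelled knock-out libraries. In the other 4 (libraries 13, 16, 19 and 22, 1 at each time) it was at 85.3%, 90.9%, 86.0% and 107%, so the label is used here as a label only. Summed macrophage markers lay between 12073 and 33654 CPM over all libraries, with 9 of 10 above 10 CPM in every 8 h library. None of the markers listed, for macrophages or for other cell types, was among the 150 genes. Summed stromal markers reached 93.7 CPM in a labelled knock-out library at 8 h, against 8.68 to 12.1 in the wild-type. Summed neutrophil markers at 8 h were at 41.8 to 56.0 CPM in wild-type and 57.9 to 81.9 in the labelled knock-out. Dendritic cell markers were at 33.2 to 64.5 and 30.6 to 75.7. B cell markers were at 144 to 229 CPM in the untreated libraries and at most 8.57 at 8 h. The part of such cells in the values below was not tested. Wild-type libraries 3, 6, 9 and 12 deviated from their group means together with labelled knock-out libraries 14, 17, 20 and 23. The correlation across 10010 genes was 0.780, 0.774, 0.770 and 0.726 at the successive times. The highest for any other pair across the genotypes was 0.671, 0.637, 0.708 and 0.708, so nearly as high at 24 h. The share of these library sets in the results is given below.

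The genes were grouped by the wild-type time next highest to 8 h, a split made on the values that chose them. The ratio of the wild-type 8 h mean to the next highest mean ran from 1.61 to 6.68, with a median of 2.05. The next highest time was 24 h for 67 genes, 4 h for 65 and 0 h for 18. In the last of these groups the median wild-type level was 40.8 CPM untreated, 25.6 at 4 h, 72.7 at 8 h and 35.4 at 24 h. In the group with 4 h next it went from 10.4 through 42.6 and 110.2 to 35.9 CPM, and in that with 24 h next from 13.8 through 27.1 and 107 to 49.9 CPM. The cut fell within a continuum: Fpr1, Ric1 and Itga5 (ratios 1.615, 1.613 and 1.609) were the last inside it, and Abcb1a, Rilpl2 and Mettl6 (1.609, 1.608 and 1.608) the first outside it.

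**Figure D1:**
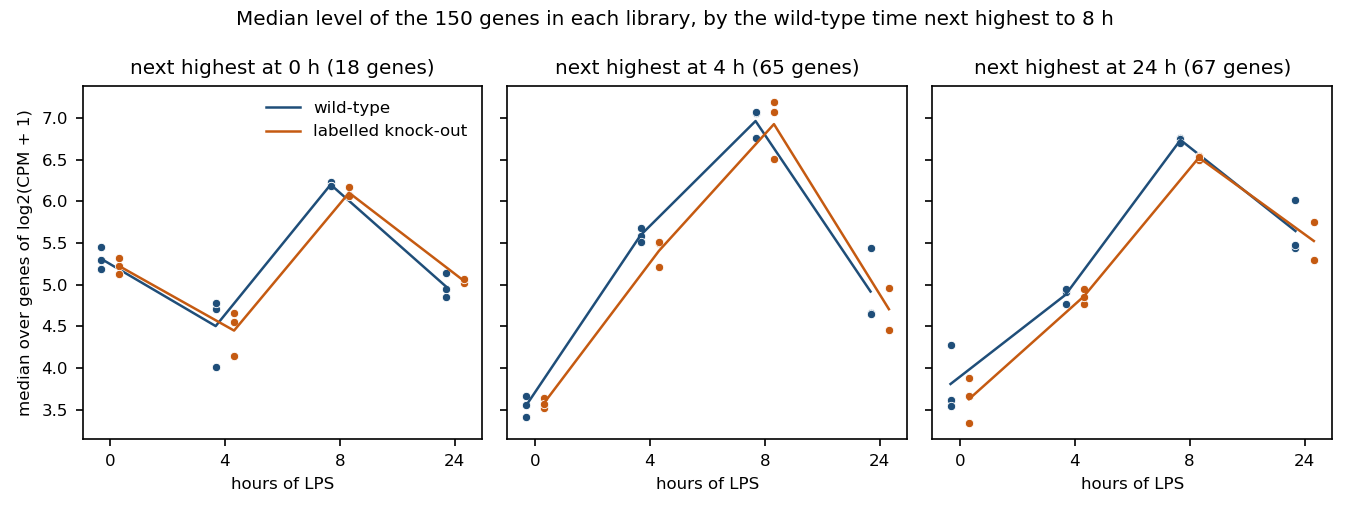
Median over genes of log2(CPM + 1) in each library (points), with lines through the group means, against hours of LPS, in 3 panels by the wild-type time next highest to 8 h. The 8 h libraries of both genotypes lie highest in every panel, and the 18 genes of the left panel dip at 4 h.

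The labelled knock-out libraries were not used to choose the genes, so they were used to test the peak. In their group means 147 of the 150 genes (98%) were highest at 8 h, against 1002 of the 7672 other kept genes (13.1%). The 3 exceptions were Osm and Fabp4, highest at 4 h, and Srp54b, highest at 24 h. All 150 passed the filter on low counts. In edgeR's quasi-likelihood test over all 17439 genes tested, with Benjamini-Hochberg adjustment and an adjusted p under 0.05, 121 of the 150 were higher at 8 h than at 4 h, against a background of 23.7% of all genes tested. Higher at 8 h than at 24 h were 133 genes (background 17%), and higher than at 0 h were 148 (background 28.4%). None was lower in any of these comparisons, while 23.5%, 16.8% and 32.1% of all genes tested were. All 3 differences were called for 107 of the 150 genes (71.3%), against 3.49% of all genes tested and 4.54% of the kept genes that were not among the 150.

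The median log2 fold change of the 150 genes in the labelled knock-out was 1.23 against 4 h (quartiles 0.82 and 1.73), 1.54 against 24 h (1.14 and 2.10) and 3.01 against 0 h (1.95 and 4.93), where the medians over all genes tested were -0.02, -0.01 and -0.09. All 18 genes with 0 h next highest in wild-type were called against all 3 times, as were 39 of 65 with 4 h next and 50 of 67 with 24 h next. Leaving out libraries 13, 16, 19 and 22 kept the fold changes (positive in 147, 147 and 150 genes, medians 1.28, 1.39 and 3.004). The medians over all genes tested were then -0.013, 0.0067 and -0.098. The calls were not kept: fewer of the 150 genes were called in each comparison, and few against 24 h or against all 3 times. A single 24 h library then remained, the same one as when library 22 alone was left out. Without libraries 13, 16, 19 and 22 the share of all genes tested that was called was also smaller in each comparison. The cause was not tested. In the 4 libraries with near wild-type Selenow alone, 143 of the 150 genes had their highest level at 8 h, against 12.5% of the other kept genes. In the other 7 labelled knock-out libraries 142 had it, against 13.3% of the other kept genes.

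**Figure D2:**
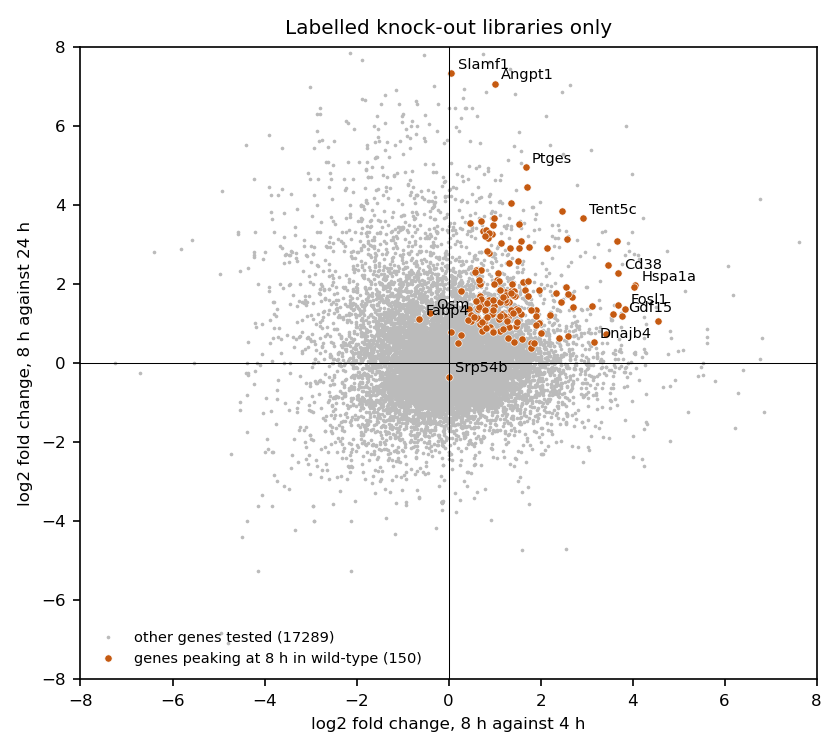
log2 fold change at 8 h against 4 h (horizontal) and against 24 h (vertical) in the labelled knock-out libraries, for the 150 genes (orange) and the 17289 other genes tested (grey, of which a few lie beyond the axes). All but Osm, Fabp4 and Srp54b of the orange points lie to the upper right of both zero lines.

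How the genes moved before and after the peak was read in the same fit, in comparisons added after the data had been seen. Of the 150 genes, 114 were higher at 4 h than at 0 h in the labelled knock-out (background 28.7%) and 11 were lower (background 33.7%). At 24 h, 67.3% were still higher than at 0 h (background 21.9%) and 4 were lower (background 21.4%). Higher at both times were 94 genes, and the share of all genes tested that did so was not counted. The 11 that fell first were Hmox1, Acvrl1, Dnajb4, Cacna1d, Rab43, Gdf15, Gm45140, Dnajb1, Nlrc4, Plekhg2 and Mylip. The 4 that ended below the untreated level were Tent5c, Layn, Uaca and Adam19.

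Chaperones and their co-factors formed a group among the 150 genes. Hspa1a and Hspa1b encode the stress-inducible Hsp70 proteins, Hspa8 the constitutive Hsc70, Dnaja1, Dnajb1 and Dnajb4 the J-domain proteins that load clients onto them, and Chordc1 a co-chaperone of Hsp90. Hspa1a (chr17:34969190-34972156, GRCm38) stood at 208, 169 and 162 CPM in the wild-type 8 h libraries, against 0.682, 0.456 and 0.405 untreated, 2.25, 1.996 and 2.88 at 4 h and 41.4, 24.9 and 34.9 at 24 h. In the labelled knock-out it went from 0.730, 0.415 and 0.390 and 3.10, 3.83 and 3.53 to 53.5, 78.5 and 58.01 CPM, then to 19.01 and 19.3. No library of another time reached the 8 h libraries in either genotype. The labelled knock-out difference was a log2 fold change of 4.05 ± 0.21 (SE) from 4 h (edgeR adjusted p = 1.14e-06) and 1.98 ± 0.22 from 24 h (edgeR adjusted p = 0.000233). Hspa1b (chr17:34956436-34959238), a near-identical neighbour, moved with it (169, 139.8 and 141 CPM in wild-type at 8 h), and how reads were shared among these copies and the overlapping locus Gm20481 is uncertain.

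Hspa8 was already high before LPS, at 1271, 1140.5 and 1244 CPM, and rose to 3757, 3586 and 2886 at 8 h in wild-type. Its labelled knock-out levels were 1396, 964 and 1511 CPM at 4 h and 3628, 2404 and 3782 at 8 h, a log2 fold change of 1.19 ± 0.24 (edgeR adjusted p = 0.00239). The J-domain genes differed in what preceded the peak. Dnaja1 rose in steps, with 71.6, 79.99 and 72, 133, 122 and 128 and 226, 272 and 235 CPM at 0, 4 and 8 h in the labelled knock-out. Dnajb1 first fell, from 41.7, 47.3 and 36.8 to 16.2, 15.5 and 17.6 CPM, before 68.1, 77.02 and 67.2 at 8 h. Dnajb4 had the deepest trough of the chaperones among the 150, with 18.8, 17.2 and 14.9, 2.98, 3.75 and 3.10 and 28.7, 36.1 and 30.8 CPM, and was not called higher at 8 h than at 24 h, where the labelled knock-out libraries were at 20.04 and 32.1 (log2 fold change 0.54 ± 0.20, edgeR adjusted p = 0.0662).

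Of a list of 33 heat shock chaperone genes, 32 were tested. At 8 h in the labelled knock-out 18 were higher than at 4 h and 2 lower, 11 were higher than at 24 h and 2 lower, and 20 were higher than at 0 h and 1 lower, with list medians of 0.46, 0.42 and 0.97. The 10 called against all 3 times were 6 of the 7 named above (all but Dnajb4) with Hspa1l, Dnaja4, Dnajb2 and Bag3. Hspa1l was at 0.707 CPM at 4 h and 4.55 at 8 h (log2 fold change 2.56 ± 0.19), and Bag3 at 54.3 and 81.7 CPM (0.44 ± 0.15). The mitochondrial chaperones Hspd1 and Hspe1 were not called in any of the 3 (0.06 ± 0.18 and 0.10 ± 0.12 against 4 h). The mRNA of the factor itself, Hsf1, was lower at 8 h than at 4 h, by -0.52 ± 0.10 (edgeR adjusted p = 0.00182).

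The promoters of Hspa1a and Chordc1 are shown because the sequence that heat shock factor binds, inverted repeats of GAA, can be read in them. Each is 250 bases before and 25 after the RefSeq start on GRCm38.p6, printed 5′ to 3′ on the gene's strand, with the match in capitals. Hspa1a (chr17:34972132-34972406, minus strand) holds 1 pair of repeats 104 bases before the start, and Chordc1 (chr9:18292017-18292291, plus strand) a longer run across the start, which is the only match among these genes to 3 repeats.
Hspa1a: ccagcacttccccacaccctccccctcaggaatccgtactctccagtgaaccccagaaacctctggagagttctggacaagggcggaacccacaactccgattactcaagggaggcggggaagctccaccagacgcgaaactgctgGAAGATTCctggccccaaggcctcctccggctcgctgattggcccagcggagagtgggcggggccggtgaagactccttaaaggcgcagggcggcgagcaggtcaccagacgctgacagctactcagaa
Chordc1: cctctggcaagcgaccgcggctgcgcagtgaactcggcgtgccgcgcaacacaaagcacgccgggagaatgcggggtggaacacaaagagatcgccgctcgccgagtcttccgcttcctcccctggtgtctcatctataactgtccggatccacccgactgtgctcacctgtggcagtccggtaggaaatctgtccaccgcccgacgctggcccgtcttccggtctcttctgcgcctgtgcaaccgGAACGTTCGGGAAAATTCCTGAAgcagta

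Promoters were found in the RefSeq table for 110 of the 150 genes, 145 in all with alternative starts. The 3-repeat element (3 alternating GAA and TTC blocks, each 2 bases apart; all motifs were searched on both strands) was in 0.69% of them and in 0.603% of all 32851 promoters in the table. The 2-repeat form (GAANNTTC or TTCNNGAA), searched after the data had been seen, was in 14.5% and 15.1%. Dnaja1, Dnajb4, Hspa1a, Hspa1b and Chordc1 were 5 of the 21 genes with the shorter form, and the others were mostly not chaperones.

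**Figure D3:**
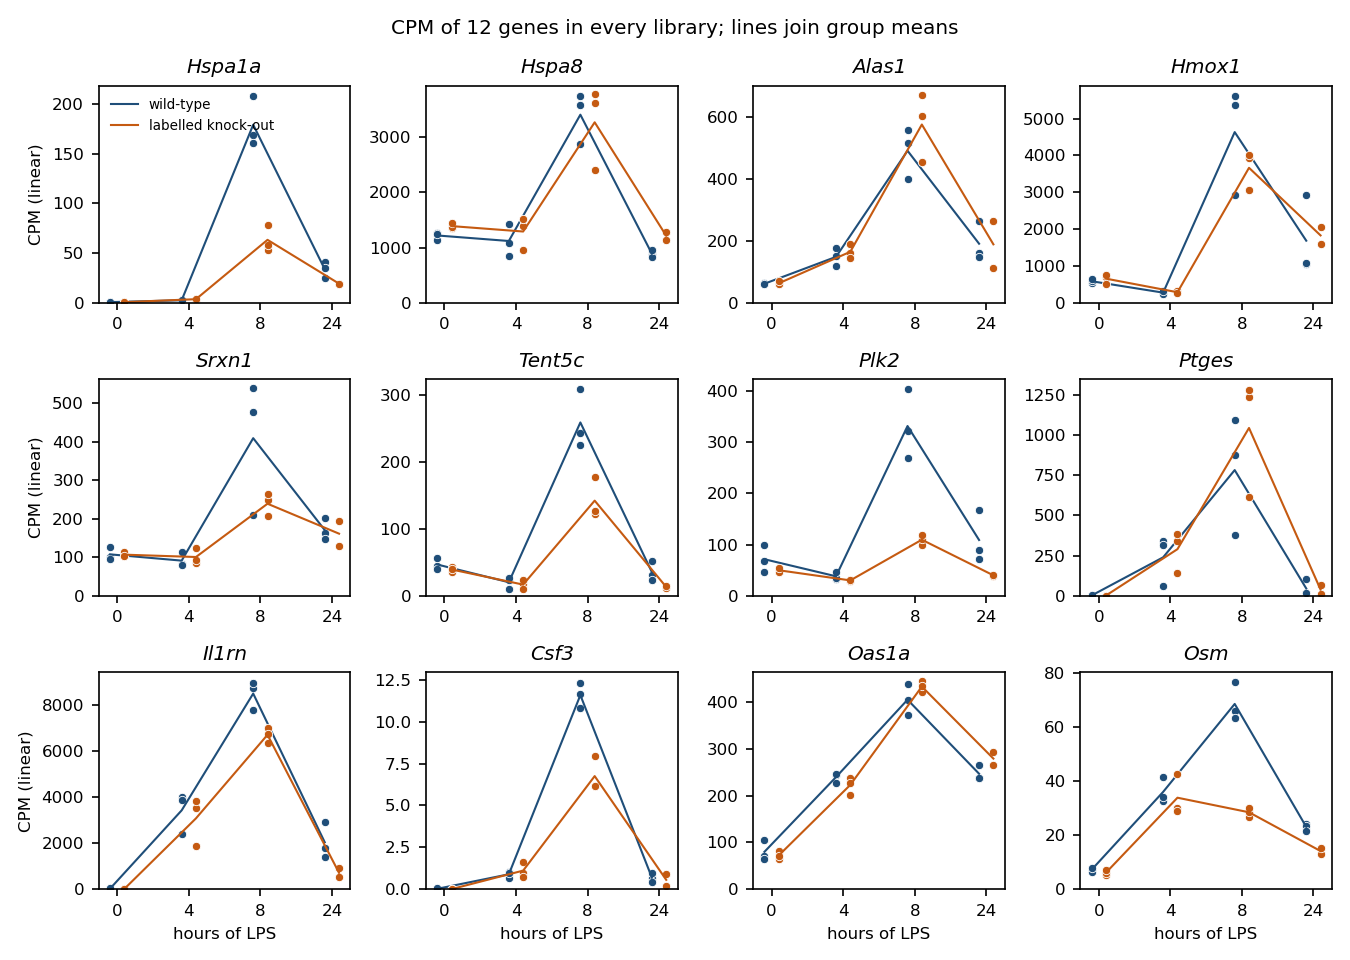
CPM (linear axes from 0) of 12 of the genes in every library against hours of LPS, with lines through the group means. The 8 h points stand above all others in wild-type for each gene, and Osm in the labelled knock-out is the exception, with its 4 h points level with or above those of 8 h.

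Uba1, the ubiquitin-activating enzyme, also peaked at 8 h. It had 469.6, 435 and 477 CPM at 4 h and 759, 769.9 and 752 at 8 h in wild-type, and 439.9, 463 and 445 and 841, 756 and 836 in the labelled knock-out, with no overlap between these times. Its log2 fold change in the labelled knock-out was 0.72 ± 0.11 (edgeR adjusted p = 0.000583). None of the 36 proteasome subunits listed was among the 150 genes, though 6 of them (Psma6, Psmb8, Psmb9, Psmb10, Psme1 and Psme2) were called higher at 8 h than at all 3 other times in the labelled knock-out.

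Haem and antioxidant genes made up a further group. Hmox1 encodes haem oxygenase, which breaks haem down to iron, biliverdin and carbon monoxide, Gclm the regulatory subunit of the enzyme that starts glutathione synthesis, and Srxn1 sulfiredoxin, which repairs oxidised peroxiredoxins. Hmox1 (chr8:75093621-75100589) dipped and then rose: 537, 575 and 633 CPM untreated, 268, 244 and 304 at 4 h, 5358, 5618 and 2927 at 8 h and 1044, 1090.4 and 2916 at 24 h in wild-type. Library 9 at 8 h and library 12 at 24 h were alike, so the wild-type groups came close to meeting there. The labelled knock-out had 277, 316 and 254 CPM at 4 h, 3933, 3059 and 4000.1 at 8 h and 1603 and 2052 at 24 h, with log2 fold changes of 3.57 ± 0.19 (edgeR adjusted p = 1.16e-06) and 1.25 ± 0.20 (edgeR adjusted p = 0.00133).

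Alas1, the rate-limiting enzyme of haem synthesis, peaked with the enzyme that degrades haem. It was at 178, 149.9 and 117 CPM at 4 h and 517, 558 and 400.4 at 8 h in wild-type and at 159, 145 and 189.8 and 605, 454 and 671 in the labelled knock-out (1.66 ± 0.30 on the log2 scale, edgeR adjusted p = 0.00123). Srxn1 reached 478, 539.6 and 211 CPM in wild-type and 248, 207 and 263 in the labelled knock-out, from 81.5, 79.9 and 113 and 85.7, 124 and 93.2 at 4 h. Its lowest wild-type 8 h library, number 9, lay among those of the labelled knock-out. Gclm was flatter, at 70.9, 139 and 68.4 CPM at 4 h and 192, 170.2 and 196 at 8 h in the labelled knock-out (0.90 ± 0.25 on the log2 scale, edgeR adjusted p = 0.0128). Hmox1, Gclm and Srxn1, with Mafg and Esd, were the 5 of 28 tested genes of an NRF2 list called against all 3 times. In that list 12 were higher and 4 lower against 4 h and 9 higher and 1 lower against 24 h, while Nqo1, often used as an NRF2 target, was not called (-0.30 ± 0.25 and -0.52 ± 0.27).

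The Gclm promoter (chr3:122245307-122245581, plus strand) is shown for the antioxidant response core TGACNNNGC, here on the opposite strand 134 bases before the start.
Gclm: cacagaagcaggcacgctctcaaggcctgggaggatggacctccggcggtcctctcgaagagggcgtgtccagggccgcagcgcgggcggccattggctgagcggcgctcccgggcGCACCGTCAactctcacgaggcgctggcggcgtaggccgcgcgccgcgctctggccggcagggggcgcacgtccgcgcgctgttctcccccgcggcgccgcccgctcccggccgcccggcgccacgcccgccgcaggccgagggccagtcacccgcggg
This core was in 17.2% of the promoters of the 150 genes and in 12.4% of all promoters, and Gclm, Srxn1, Maff, Slc30a1 and Ppp1r15a were among the 23 genes with it.

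Metal transporters were represented by Slc30a1, the zinc exporter of the plasma membrane, and Slc31a1, the copper importer. Slc31a1 rose from 211, 211 and 242 CPM at 4 h to 708, 472 and 727 at 8 h in the labelled knock-out, where library 20 was lowest, and stood at 181 and 198 at 24 h (log2 fold changes 1.38 ± 0.18 and 1.997 ± 0.21). Slc30a1 had 40.4, 38.03 and 32.7, 62.1, 64.3 and 68.5 and 22.1 and 17.1 CPM at those times, with no overlap. Of the 14 metallothionein and metal transport genes listed, these 2 were the ones called against all 3 times, and 6 were lower at 8 h than at 4 h. The copper-carrying ferroxidase ceruloplasmin, Cp, had 224, 227 and 231 CPM at 8 h in wild-type and 236, 239.9 and 234 in the labelled knock-out, against 110.1, 125 and 69.1 and 109.8, 63.96 and 82.8 at 4 h.

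Among kinases, immediate early genes and stress regulators, Tent5c (chr3:100451628-100489324), a cytoplasmic poly(A) polymerase, had the largest wild-type ratio after Csf3. It fell from 44.2, 39.5 and 56.98 CPM to 23.3, 27.2 and 10.6 at 4 h, rose to 309, 226 and 244 at 8 h and was at 31.2, 23.2 and 51.9 at 24 h. In the labelled knock-out the 8 h libraries were at 123, 178 and 127 CPM and the 24 h libraries at 12.4 and 14.2. Their log2 fold change was 3.67 ± 0.39 (edgeR adjusted p = 0.000189), and that against 0 h was 2.38 ± 0.31 (edgeR adjusted p = 9.31e-05).

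Plk2 (chr13:110395046-110400844), a polo-like kinase and p53 target, went from 33.4, 34.5 and 46.5 CPM at 4 h to 404, 322 and 268 at 8 h in wild-type, and from 29.95, 29.5 and 31 to 98.8, 111 and 119 in the labelled knock-out. Every wild-type 8 h library was far above every labelled knock-out one, and within the labelled knock-out the log2 fold change was 1.72 ± 0.13 against 4 h (edgeR adjusted p = 5.72e-06) and 1.71 ± 0.15 against 24 h (edgeR adjusted p = 6.83e-05). Plk3 rose likewise at 8 h, to 67.01, 61.2 and 72.1 CPM from 13.4, 11.3 and 20.2, but was not called against 24 h (41.5 and 52.7 CPM, 0.75 ± 0.46 on the log2 scale, edgeR adjusted p = 0.232). Of 21 tested genes on a list of p53 targets and cell cycle inhibitors, 8 were higher and 5 lower than at 4 h in the labelled knock-out. Against 0 h 8 were higher and 9 lower, and 1 (Plk2) was called against all 3 times.

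Fosl1, an AP-1 subunit, was at most 1.001 CPM in every untreated and 4 h library and reached 23.3, 24.6 and 10.8 CPM in wild-type and 9.66, 8.62 and 12.6 in the labelled knock-out at 8 h. Its labelled knock-out fold change from 4 h was 3.83 ± 0.41 (edgeR adjusted p = 4.97e-05). Arc, best known as a neuronal immediate early gene, was at 17.2, 9.61 and 11.9 CPM in wild-type and 2.33, 1.19 and 3.33 in the labelled knock-out, and at 0.200, 0.170 and 0.218 and 0.345, 0.268 and 0.339 at 4 h. Egr1 was not called higher at 8 h than at 4 h in the labelled knock-out (5.02, 7.97 and 3.17 and 8.03, 14.4 and 7.68 CPM, 0.79 ± 0.31 on the log2 scale, edgeR adjusted p = 0.0588), nor was the small Maf protein gene Maff (0.27 ± 0.29, edgeR adjusted p = 0.472). Of 40 AP-1 and immediate early genes tested, 14 were higher and 11 lower than at 4 h, and 9 were called higher than at all 3 other times, among them Fosb, Egr2 and Nr4a1 (2.41 ± 0.20 against 4 h), which fell below the 10 CPM floor or the limit of 150.

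Gdf15, a secreted stress cytokine, and Ppp1r15a, which restores translation by directing a phosphatase to an initiation factor, belong to the integrated stress response. Gdf15 fell to 0.763, 1.19 and 1.40 CPM at 4 h from 13.02, 15.3 and 12.9 and rose to 19.2, 12.9 and 18.3 at 8 h in the labelled knock-out, a log2 fold change of 3.77 ± 0.25 from the trough (edgeR adjusted p = 3.07e-06) but 0.82 ± 0.21 from 0 h (edgeR adjusted p = 0.00671). The wild-type 8 h level was higher, at 48.9, 44.6 and 21.6 CPM. Ppp1r15a had 166, 153 and 129 CPM in wild-type and 67.3, 76.7 and 69.5 in the labelled knock-out at 8 h and was not called against 4 h (0.43 ± 0.24, edgeR adjusted p = 0.166), library 17 at 4 h lying within the range of the 8 h libraries. Of 28 tested genes on an integrated stress response list, 9 were higher and 2 lower at 8 h than at 4 h in the labelled knock-out. Against 24 h 7 were higher and 5 lower, and against 0 h 15 and 1. The list medians were -0.20, -0.10 and 0.97 on the log2 scale, and 2 (Gdf15 and Slc3a2) were called against all 3 times. None of 24 listed genes of the endoplasmic reticulum unfolded protein response was among the 150, and 10 of them were lower at 8 h than at 24 h.

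The promoters of Plk2 (chr13:110394794-110395068, plus strand) and Ppp1r15a (chr7:45526244-45526518, minus strand) are shown because each holds the full cyclic AMP response element TGACGTCA, 62 and 12 bases before the start.
Plk2: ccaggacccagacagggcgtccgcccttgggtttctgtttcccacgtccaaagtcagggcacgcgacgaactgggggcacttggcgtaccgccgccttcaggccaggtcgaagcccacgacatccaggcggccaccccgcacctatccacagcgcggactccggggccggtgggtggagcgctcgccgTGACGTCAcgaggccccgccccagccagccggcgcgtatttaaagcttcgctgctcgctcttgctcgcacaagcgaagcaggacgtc
Ppp1r15a: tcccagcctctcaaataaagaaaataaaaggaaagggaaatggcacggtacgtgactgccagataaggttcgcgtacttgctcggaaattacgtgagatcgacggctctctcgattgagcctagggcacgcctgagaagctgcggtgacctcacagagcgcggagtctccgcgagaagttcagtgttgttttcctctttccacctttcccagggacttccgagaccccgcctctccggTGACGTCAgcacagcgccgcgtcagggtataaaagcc
Maff and Slx4ip were the other genes with it, 2.76% of the promoters of the 150 genes against 1.79% of all promoters. The AP-1 site TGANTCA was in 9.66% and 7.81%, and the amino acid response element TGATGNAAN in 6.21% and 3.95%.

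Of 30 cytokines listed, Csf3, Il1rn and Osm were among the 150 genes. Csf3 (chr11:98701263-98703629, GRCm38), which encodes granulocyte colony-stimulating factor, had the highest ratio of all 150 genes. It was at 1.03, 0.657 and 0.968 CPM at 4 h, 10.8, 12.3 and 11.6 at 8 h and 0.664, 0.431 and 0.951 at 24 h in wild-type, and at 0.960, 0.731 and 1.62, 6.15, 6.17 and 7.93 and 0.191 and 0.913 in the labelled knock-out. All labelled knock-out 8 h libraries were below all wild-type ones and above every other time. The fold change within the labelled knock-out was 2.46 ± 0.49 from 4 h (edgeR adjusted p = 0.00364). No count was found in its untreated libraries, so the 8 h mean was at least 277-fold higher when a floor of 3 counts is taken over those libraries together. The median over the 150 genes against 0 h stayed at 3.01 with this bound.

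Il1rn, the secreted antagonist of the interleukin-1 receptor, was at 3989, 3882 and 2413 CPM at 4 h, 8765, 7791 and 8984 at 8 h and 1806, 1379 and 2933 at 24 h in wild-type. The labelled knock-out went from 3545, 1868 and 3826 to 6353, 7032 and 6769 and back to 517 and 899 CPM, with libraries 6 and 17 lowest at 4 h. Its log2 fold changes were 0.96 ± 0.34 against 4 h (edgeR adjusted p = 0.0375) and 3.49 ± 0.44 against 24 h (edgeR adjusted p = 0.000377). Osm, an interleukin-6 family cytokine, had 41.5, 32.5 and 34.03 CPM at 4 h and 76.7, 65.8 and 63.3 at 8 h in wild-type. That rise was required by the choice of the genes. The labelled knock-out had 30.1, 28.9 and 42.6 and 26.8, 28.5 and 30.1, and there the difference was not called (-0.40 ± 0.19, edgeR adjusted p = 0.117). The libraries of the genotypes overlapped at 4 h and did not at 8 h.

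Of 27 cytokines tested, 17 were lower at 8 h than at 4 h in the labelled knock-out and 2 were higher, those 2 (Csf3 and Il1rn) also being the ones called against all 3 times. Tnf was at 1660 CPM at 4 h and 375 at 8 h (-2.25 ± 0.49), and Il6 at 556 and 41.4 (-3.84 ± 0.78). The chemokine Ccl5, which recruits T cells and monocytes, was the only one of 21 tested chemokines among the 150, at 2563, 2384 and 2230.0 CPM at 4 h and 3967, 4652 and 4195 at 8 h without a call (0.70 ± 0.33, edgeR adjusted p = 0.102). Of the cytokine receptors, Csf3r, which binds the Csf3 product, had 317, 166 and 366 CPM and Il2ra, the high-affinity subunit for interleukin-2, 19.8, 20.4 and 26.2 at 8 h in the labelled knock-out. Neither was called against 4 h (1.14 ± 0.54 and 0.71 ± 0.41), and libraries 9 and 20 had the lowest Csf3r of their groups (282, 309 and 142 CPM in wild-type).

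Of 16 genes on a list of arginine, prostaglandin and activation enzymes, Arg2, Ass1 and Ptges were among the 150. In the labelled knock-out 5 of the 16 were higher and 5 lower at 8 h than at 4 h (list median -0.13 on the log2 scale), and 2 were called against all 3 times. Ptges, the inducible prostaglandin E synthase, went from 340.0, 319 and 60.4 CPM at 4 h to 875, 1092 and 379.9 at 8 h and 17.05, 15.2 and 106 at 24 h in wild-type. In the labelled knock-out it was at 344, 139.6 and 388, 1235, 614 and 1283 and 10.4 and 67.8. Libraries 6 and 9 in wild-type and 17 and 20 in the labelled knock-out were far below the others of their group, and its standard error was accordingly wide, with 1.68 ± 0.62 from 4 h (edgeR adjusted p = 0.0452) and 4.96 ± 0.85 from 24 h (edgeR adjusted p = 0.00184). Ptgir, the prostacyclin receptor, was at 17.3, 31.7 and 19.5 CPM at 4 h and 59.3, 62.3 and 61.5 at 8 h (1.31 ± 0.27, edgeR adjusted p = 0.00279).

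Arg2, the mitochondrial arginase, had 5.32, 4.17 and 6.10 CPM at 4 h and 20.7, 12.3 and 24.2 at 8 h in the labelled knock-out (1.73 ± 0.35, edgeR adjusted p = 0.00234), and 5.95, 6.23 and 4.65 and 33.4, 30.02 and 21.4 in wild-type. Ass1, which regenerates arginine from citrulline, rose from 150.5, 194 and 137 to 561, 702 and 542 CPM (1.78 ± 0.38, edgeR adjusted p = 0.00304) but was not called against 24 h, where the libraries were at 273 and 723 (0.51 ± 0.41, edgeR adjusted p = 0.375). Its pseudogene copy Gm5424 is also among the 150, so the split of reads between them is uncertain. Gatm, which turns arginine into the creatine precursor, was at 138, 159 and 129 CPM at 4 h and 435, 426 and 338 at 8 h (1.36 ± 0.20, edgeR adjusted p = 0.00032). Cd38, which hydrolyses NAD, climbed from 0.341, 0.0488 and 0.219 CPM untreated to 9.75, 6.19 and 9.87 at 4 h and 154, 60.2 and 154 at 8 h, a log2 fold change of 3.68 ± 0.42 over 4 h (edgeR adjusted p = 6.62e-05), and had 60.9, 84.8 and 27.5 in wild-type.

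Hp encodes haptoglobin, the plasma protein that binds free haemoglobin, and was the only one of 17 tested acute phase and antimicrobial genes among the 150 and called against all 3 times. It was at 53.3, 38.3 and 8.23 CPM at 4 h and 132, 155 and 43.2 at 8 h in wild-type and at 34.3, 17.6 and 30.2 and 216, 102 and 226 in the labelled knock-out (2.57 ± 0.35, edgeR adjusted p = 0.000227). Of the coagulation genes, F10, coagulation factor X, had 74.2, 83.9 and 23.5 and 95.6, 55.8 and 115 CPM at 8 h, and Procr, the endothelial protein C receptor, 559, 524 and 466 and 265, 297 and 299. F10 overlapped between genotypes and Procr did not. Mmp14, a membrane-bound collagenase, overlapped between the genotypes at 8 h (1488, 1627 and 1644 and 1538, 1685 and 1597 CPM) and rose by 0.98 ± 0.30 over 4 h in the labelled knock-out (edgeR adjusted p = 0.0222).

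The interferon-stimulated genes at the 8 h peak were 4 of 44 listed: Isg20, an exonuclease for RNA, Oas1a and Oas1g, which belong to the oligoadenylate synthetases that activate RNase L, and Zbp1, a sensor of Z-form nucleic acids. Oas1a was at 245, 246 and 228 CPM at 4 h, 405, 438 and 372 at 8 h and 238, 237 and 265 at 24 h in wild-type, and at 239, 202 and 228, 444, 421 and 434 and 266 and 292 in the labelled knock-out. The 8 h libraries overlapped between genotypes and stood clear of the other times (0.82 ± 0.14 against 4 h, edgeR adjusted p = 0.00104). Isg20 had 256, 324 and 257 CPM (1.12 ± 0.32, edgeR adjusted p = 0.0141), and Zbp1 was at 364, 259 and 274 and 572, 592 and 585 CPM at 4 and 8 h, without a call (0.82 ± 0.31, edgeR adjusted p = 0.05). All 44 listed genes were higher at 8 h than at 0 h in the labelled knock-out, but 19 were lower than at 4 h and 8 higher, and 3 (Isg20, Oas1a and Oas1g) were called against all 3 times.

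The Oas1a promoter (chr5:120907501-120907775, minus strand) is shown for its pair of overlapping interferon-stimulated response elements (GAAA, 2 bases, GAAA), the first 20 bases before the start.
Oas1a: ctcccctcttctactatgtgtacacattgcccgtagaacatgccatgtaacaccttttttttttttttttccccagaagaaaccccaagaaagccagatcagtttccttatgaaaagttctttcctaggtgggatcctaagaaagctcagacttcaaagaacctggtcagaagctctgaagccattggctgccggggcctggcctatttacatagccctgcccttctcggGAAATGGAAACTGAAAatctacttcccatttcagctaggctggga
The element was in 6.21% of the promoters of the 150 genes and in 3.44% of all promoters, in Fcgr4, Lgals9, Oas1a, Oas1g, Phf11a, Phf11b, Plk2, Ppp1r15a and Serp1. The NF-kB site (GGGA, 4 bases, CC) was in 28.3% and 20.7%, the E-box CACGTG in 11.7% and 7.15%, the hypoxia element ACGTG in 26.2% and 19.6% and the metal response core TGCNCNC in 60.7% and 51.0%. The share among the 150 genes was above that of all promoters for 10 of the 11 motifs searched, so a higher share marks no motif in particular.

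The formyl peptide receptor genes Fpr1, Fpr2 and Fpr3, whose products sense bacterial peptides, all rose at 8 h. Fpr2 was at 74.8, 73.4 and 43.6 CPM at 4 h and 252, 287 and 245 at 8 h in the labelled knock-out (1.91 ± 0.36, edgeR adjusted p = 0.00165). Fpr1 had 94.2, 123 and 104 CPM in wild-type and 279.8, 229 and 268 in the labelled knock-out, without overlap, but its 24 h libraries in the labelled knock-out were far apart (69.5 and 309) and it was not called against that time. Cmklr1, the chemerin receptor, rose by 1.35 ± 0.31 over 4 h (edgeR adjusted p = 0.00467). Gpr31b, a G protein-coupled receptor gene, had 35.95, 37.7 and 58.2 CPM in wild-type and 12.7, 17.6 and 13.8 in the labelled knock-out, and 6.98, 7.03 and 9.73 and 1.72, 1.58 and 1.36 at 4 h. It differed between genotypes at each of these times and rose within both (3.11 ± 0.34 in the labelled knock-out, edgeR adjusted p = 5.65e-05).

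Slamf1 and Slamf7, receptors of the signalling lymphocytic activation family, were called higher at 8 h than at 24 h but not than at 4 h in the labelled knock-out. Of 15 tested genes on their list of costimulatory molecules and checkpoint ligands, 0 were higher and 4 lower than at 4 h. Against 24 h 11 were higher and 2 lower, and 0 were called against all 3 times. Slamf1 had 19.98, 4.31 and 21.9 CPM at 4 h, 20.2, 11.01 and 23.5 at 8 h and 0.215 and 0.0481 at 24 h (0.063 ± 0.55 against 4 h, edgeR adjusted p = 0.936, and 7.34 ± 1.02 against 24 h, edgeR adjusted p = 0.000603). The sign against 4 h depends on the libraries: without library 17 it was -0.40. Slamf7 had 458, 308 and 439.7 CPM at 4 h and 614, 833 and 692 at 8 h (0.68 ± 0.37, edgeR adjusted p = 0.157). It overlaps the predicted gene Gm37787, and their reads cannot be told apart there. Eng and Acvrl1, a co-receptor and a receptor for bone morphogenetic proteins, both peaked at 8 h, Eng from 108, 66.3 and 111 to 244, 189.6 and 233 CPM and Acvrl1 from a trough of 6.79, 6.26 and 8.15 to 87.7, 87.1 and 75.7 (3.42 ± 0.17, edgeR adjusted p = 8.6e-07).

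Of 32 tested genes on a list of growth factors, matrix and tissue repair, Mmp14, F10 and Procr were among the 150. At 8 h in the labelled knock-out 6 of the 32 were higher and 11 lower than at 4 h (list median -0.11 on the log2 scale), and 3 were called against all 3 times. The genes named next are on no such list. Angpt1, a ligand of the Tie2 receptor, had 12.6, 5.98 and 19.5 CPM in wild-type and 4.61, 12.6 and 4.18 in the labelled knock-out, with libraries 9 and 20 highest, and at most 0.512 CPM in every library at 0 and 24 h. It was not called against 4 h (1.005 ± 0.42, edgeR adjusted p = 0.0732). Flt4, a receptor of vascular endothelial growth factors, had 2.51, 2.22 and 2.37 CPM at 4 h and 5.31, 11.4 and 5.74 at 8 h (1.52 ± 0.37, edgeR adjusted p = 0.00676). Nes, the intermediate filament gene nestin, had 14.6, 20.5 and 11.98 and 36.2, 88.3 and 42.9 (1.71 ± 0.52, edgeR adjusted p = 0.0201), and Col4a2, a basement membrane collagen, 6.87, 10.6 and 5.81 and 24.4, 28.3 and 24.2 (1.61 ± 0.56, edgeR adjusted p = 0.0365). The matrix cross-linking enzyme Lox was not called against 4 h (1.35 ± 0.52, edgeR adjusted p = 0.0533). The stromal markers also moved in these libraries (28.6 to 98.2 CPM summed at 4 h and 13.7 to 93.7 at 8 h in the labelled knock-out, 26.6 to 34.7 and 8.68 to 12.1 in wild-type), and their part in these values was not tested.

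Lysosomal and metabolic members included Slc15a3, a lysosomal histidine and peptide transporter, which went from 1174, 1105 and 1279 to 2319, 2315 and 2388 CPM (0.84 ± 0.18, edgeR adjusted p = 0.00367), and Phyh, a peroxisomal enzyme for branched fatty acids, which went from 45.7, 33.4 and 37 to 108, 81.6 and 108 (1.22 ± 0.17, edgeR adjusted p = 0.000221). Mylip, the ubiquitin ligase that degrades the LDL receptor, rose from 33.6, 52.3 and 28 to 102, 123 and 104 CPM (1.42 ± 0.22, edgeR adjusted p = 0.00054) but had been at 94.6, 74.4 and 121 untreated. No gene of the glycolysis, hypoxia, cholesterol synthesis, cell cycle, DNA replication, ribosome biogenesis, tRNA synthetase or mitochondrial mRNA lists was among the 150. In all, 41 of the 150 genes were on at least 1 of the 29 lists and 109 on none, so the lists describe a minority of them.

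The 43 genes not called against all 3 times fell into few patterns. For 25 only the difference from 4 h was missing, among them Sdc1, Egr1, Il2ra, Csf3r, Slamf1, Slamf7, Osm, Zbp1, Ccl5 and Lox. For 14 only that from 24 h was missing, among them Plk3, Fpr1, Fpr3, Nlrc4, Rgs1, Ass1, Mylip and Dnajb4. Maff and G530011O06Rik were called against 0 h alone, Fabp4 against 24 h alone, and Srp54b against no time. Srp54b had 15.2, 6.94 and 22.8 CPM in wild-type and 10.2, 2.37 and 10.6 in the labelled knock-out at 8 h, where the labelled knock-out libraries overlapped every other time and the wild-type libraries overlapped those of 4 h.

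At 8 h the 150 genes were on the whole lower in the labelled knock-out libraries than in wild-type. This is given as a description, because choosing genes for a high wild-type 8 h level favours a lower value in any other group. The median ratio of the labelled knock-out to the wild-type mean was 0.915 over the 150 genes (quartiles 0.709 and 1.04) and 1.03 over all kept genes. For 35 genes all labelled knock-out libraries lay below all wild-type libraries (8.34% of all kept genes did so), for 9 they lay above (17% of all kept genes) and for 106 they overlapped. Without library 19 the counts were 35 (9.17% of all kept genes) and 10 (18%).

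The lowest ratios among genes with names were those of Arc (0.177), Camk2b (0.225), Rgs1 (0.330), Plk2 (0.331) and Gpr31b (0.335). Camk2b, a calcium and calmodulin-dependent kinase subunit, had 17.95, 13.8 and 24.9 CPM in wild-type and 4.25, 4.31 and 4.16 in the labelled knock-out, and was already apart untreated (8.40, 8.23 and 6.58 against 2.82, 1.61 and 3.26). Rgs1, a regulator of G protein signalling, had 259, 189 and 244 and 58.8, 109 and 60.9. Among predicted loci G530011O06Rik was lower still, at 0.0890, with 190.3, 133 and 214 against 9.06, 29.5 and 9.29 CPM. It was named after its value was seen. In each of these genes the libraries of the genotypes did not overlap.

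Nlrc4 (chr17:74425438-74459142), the inflammasome adaptor for flagellin and type III secretion proteins, had a different course in the genotypes and was also picked out after its values were seen. Wild-type libraries were at 17.04, 16.9 and 11.1, 49.6, 46.95 and 47.4 and 83.6, 81.4 and 100.5 CPM at 0, 4 and 8 h, and labelled knock-out libraries at 24.05, 19.1 and 25.2, 7.95, 8.89 and 7.33 and 34.2, 24.4 and 37.1. The 4 h level was thus above the untreated level in every wild-type library and below it in every labelled knock-out library, where it fell by 0.85 ± 0.23 (edgeR adjusted p = 0.00837). The highest ratios belonged to Fpr1 (2.42), Cd38 (2.13), Hp (1.65), Lox (1.52) and F10 (1.47). Of these Fpr1 did not overlap between genotypes, while in Cd38, Hp and F10 wild-type library 9 and labelled knock-out library 20 were the lowest of their groups and the groups overlapped.

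**Figure D4:**
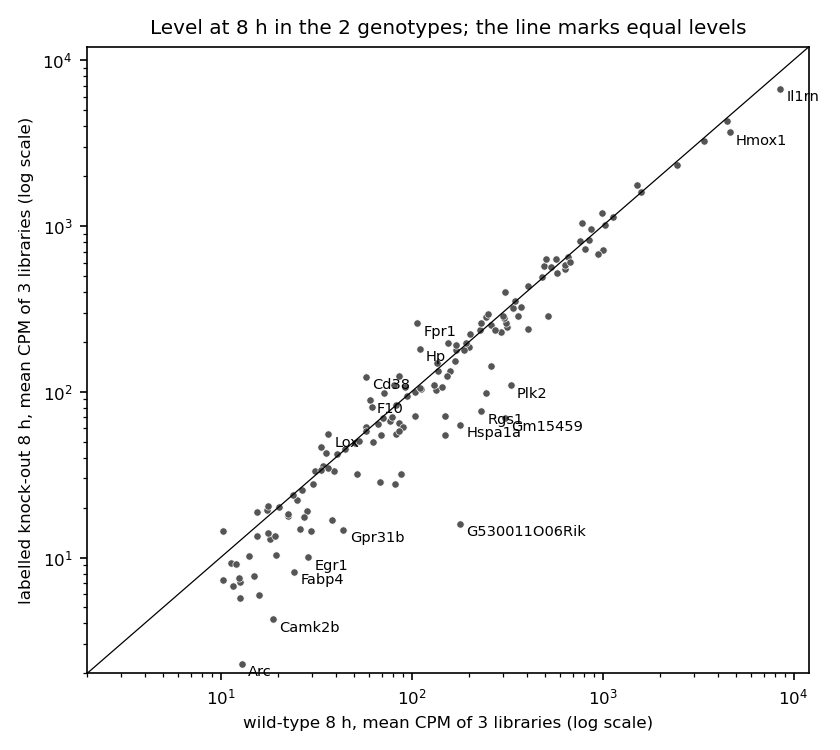
Mean CPM at 8 h of each of the 150 genes in wild-type (horizontal) and labelled knock-out libraries (vertical), both on log scales, 3 libraries each. Most genes lie near the line of equal levels (median ratio 0.915), with Arc, Camk2b, Plk2 and G530011O06Rik well below it and Fpr1 and Cd38 above it.

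Part of the spread between replicates was shared by the genotypes. Library 9 in wild-type and library 20 in the labelled knock-out departed from the other 8 h libraries of their group in the same direction for 117 of the 150 genes. Their deviations also went together across 10010 genes (correlation 0.770), so this is not particular to the 150. The share of other genes that did so, or that departed beyond 1.5-fold, was not counted. Departures beyond 1.5-fold in both were seen downward in 11 genes (F10, Ptges, Hp, Cd38, Antxr1, Sdc1, Cacna1d, Layn, Csf3r, Anpep and Lox) and upward in 11 (Nes, Angpt1, Armcx6, Egr1, Fgl2, Rpgrip1l, Serp1, Itpr1, Tlr9 and 2 predicted loci). Srp54b was the exception that went opposite ways. Sdc1, the heparan sulfate proteoglycan syndecan, had 124, 118 and 35.3 CPM in wild-type and 134, 41.6 and 145 in the labelled knock-out. Tlr9, the receptor for unmethylated DNA, showed the reverse, with 133, 78.99 and 219 and 69.7, 175 and 74.7. Libraries 9 and 20 thus had the highest Tlr9 of all 23 libraries and the lowest Sdc1 of the 8 h libraries. Without libraries 9 and 20 the genotypes did not overlap in 85 genes lower (25.8% of all kept genes) and 32 higher (42.3%) in the labelled knock-out, with 2 libraries a group, and the median ratio was 0.892. In the time comparison, leaving out labelled knock-out libraries 14, 17, 20 and 23 raised the genes called against all 3 times from 107 to 134 of the 150 (background 6.24%), again with 1 library at 24 h.

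**Figure D5:**
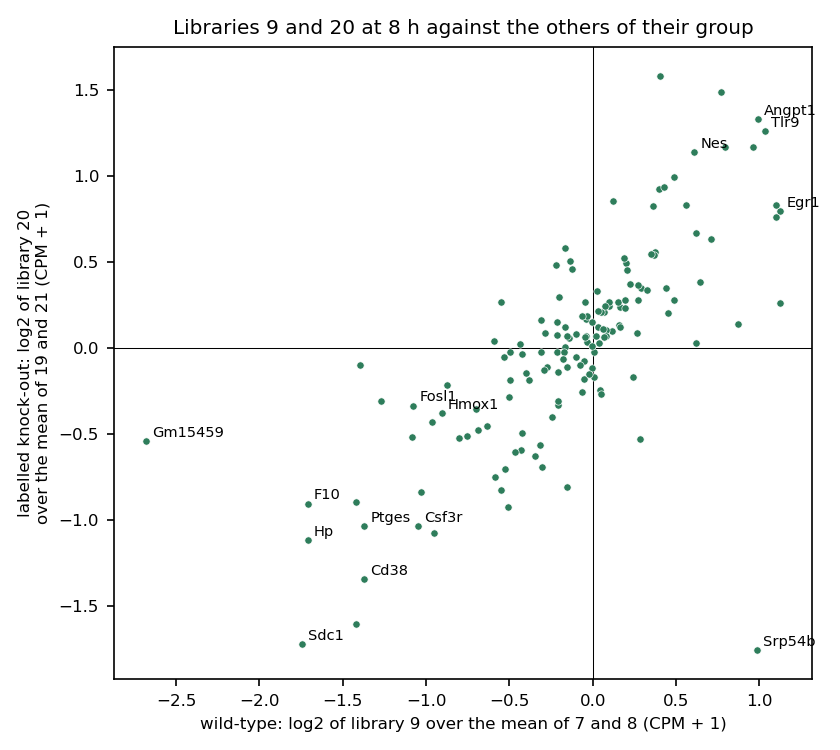
For each of the 150 genes at 8 h, the log2 ratio of wild-type library 9 to the mean of libraries 7 and 8 (horizontal) against that of labelled knock-out library 20 to the mean of 19 and 21 (vertical), with 1 CPM added. Most points lie at the lower left and upper right, 117 of 150 having the same sign in both, and Srp54b lies farthest to the lower right.

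Some of the 150 entries need care as genes. There were 137 protein-coding genes, 8 pseudogenes and 5 entries of other types. Exons of 52 overlap those of another gene, 43 of them on the opposite strand, where strandless counting cannot separate the transcripts. Mir147 lies within exons of AA467197, so its 259.8, 234 and 258 CPM at 8 h come from fragments that also count for that host gene (865, 844 and 895 CPM) and are no measure of the mature microRNA. The processed pseudogene Gm15459 (chr5:5781615-5783555) was at 86.7, 771 and 65.9 CPM in wild-type at 8 h, library 8 standing far above the others, and the same held for libraries 2, 5 and 11 at the other times (29.97, 334 and 29.02 CPM untreated). At every time the highest wild-type library was 7.32 to 10.8 times the next, with 1 CPM added, while labelled knock-out libraries were at 74.3, 52.9 and 80.5 at 8 h, and no other of the 150 genes had a single wild-type library of this kind at 2 times the next or more at all 4 times.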

How the data were processed

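RNA-seq of 23 libraries was analysed from the deposited table of raw counts of read pairs per gene. Per the file headers, the authors made these counts with featureCounts 2.0.1 on Ensembl release 101 of GRCm38. Counting ignored strand, credited a pair to every gene it overlapped, and left out pairs aligning to several places. HISAT2 was the aligner per the submitters' processing notes, in a version not given in the sources used here. RNA was isolated with on-column DNase digestion, per the labels' protocols.

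Genes were named through GENCODE mouse release 21 (55141 of 55401 identifiers). CPM are relative to library totals. The labelled knock-out fit used edgeR 4.0.16 under R 4.3.3 on 11 libraries, with TMM scaling, filterByExpr, 4 group means and quasi-likelihood tests (two-sided, Benjamini-Hochberg over all genes tested). Standard errors are the size of the fold change on the log2 scale over the root of the F statistic. Between 8 h and 4, 24 and 0 h, CPM by library total moved the median kept gene by 0.16, -0.20 and -0.34 on the log2 scale in the labelled knock-out, and the TMM fit by 0.04, 0.05 and 0.18. The fit was checked on simulated counts. Depth was similar in all libraries, and the floor of 3 counts covers counting error only.

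The members and lists were chosen with earlier results of these data known. Genes named in the text came from a rule covering rank, level, lists, the limit and extreme genotype ratios. The genes Uba1, Alas1, Cp, Gatm, Ptgir, Fpr2, Cmklr1, Eng, Acvrl1, Phyh, Sdc1, Tlr9, Dnajb1, Dnajb4, Chordc1, Srp54b, Nlrc4 and Lrp4 and the predicted loci were named with their values in view. The alternatives were DESeq2 1.42.0, other scalings, filters, thresholds and sample sets, leaving out libraries, and a block on library sets. Promoters are from RefSeq on GRCm38.p6. A result for 1 gene is not reported here.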

Additional observations from a re-analysis of the deposited data

Results flagged for a closer look

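Fabp4, a fatty acid carrier of macrophages and fat cells, moved in opposite directions in the genotypes between 4 and 8 h. All wild-type libraries were higher at 8 h (31.4, 26.1 and 15.2 CPM) than at 4 h (10.5, 12.8 and 14.3), and all labelled knock-out libraries were lower (8.05, 7.29 and 9.19 against 11.5, 12.9 and 10.5). The labelled knock-out log2 fold change was -0.64 ± 0.25 (SE; edgeR adjusted p = 0.0567). Nlrc4 did so between 0 and 4 h, with a labelled knock-out log2 fold change of -0.85 ± 0.23 (edgeR adjusted p = 0.00837) while every wild-type library rose. Lrp4, an LDL receptor relative, did so between 0 and 24 h, where the labelled knock-out log2 fold change was -0.16 and not called. In these 3 genes the difference between the genotypes was not tested, since the wild-type values chose the genes.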

How the results depend on the processing

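The share of all genes tested that was called higher than at all 3 other times was 3.49% in the main fit. That share was 1.57% at an adjusted p under 0.01 and 0.831% when tested against a fold of 1.5. DESeq2, 2 other scalings, 2 other filters and the fit of all 23 libraries each kept the count of genes called against all 3 other times within 1.5 times of 107. It moved to 70 at an adjusted p under 0.01, to 56 when tested against a fold of 1.5, and to 9 without libraries 13, 16, 19 and 22, where the count against 24 h moved to 12. That fit had 1 library at 24 h, whose spread was assumed to be that of the other groups, and so had the fits without library 22 or 23 alone, with 100 and 126 calls against 24 h. The cause was not tested. Leaving out each library in turn gave 108 to 125 genes called higher than at 4 h, 100 to 136 than at 24 h, 145 to 148 than at 0 h and 85 to 111 than at all 3. Of 3498 values of named genes under these alternatives 3248 kept direction and call, 190 lost the call, 52 gained it and 8 turned sign, none of them called. Those 8 were Slamf1 at 8 h against 4 h (-0.40, -0.010 and -0.17 without replicates 17, 19 and 21, and -0.12 without libraries 14, 17, 20 and 23), Ass1 against 24 h (-0.054 without replicate 22, -0.0018 without libraries 13, 16, 19 and 22) and Fpr1 against 24 h (-0.044 and -0.098, likewise). Leaving out 1 library gave -0.40 to 0.43 for Slamf1, -0.054 to 1.44 for Ass1 and -0.044 to 2.20 for Fpr1. The cause was not tested. The rule still chose 122 of the 150 genes with TMM-scaled CPM, 124 with medians, 142 to 146 with other offsets and 123 to 149 without a wild-type library. The labels pair no libraries, since no running number occurs in more than 1 group. A replicate block on 3 library sets seen in the data (13, 16, 19 and 22, then 14, 17, 20 and 23, then 15, 18 and 21) gave 128 genes called higher than at 4 h, 134 than at 24 h, 148 than at 0 h and 114 than at all 3. With it Egr1, Csf3r, Zbp1 and Lox were called higher than at 4 h (edgeR adjusted p = 0.0235, 0.00237, 0.035 and 0.0306), Fabp4 lower (-0.66, 0.0228) and higher than at 0 h (0.60, 0.0269), and Arc was not called against 24 h (1.33, edgeR adjusted p = 0.0801). Leaving out libraries 14, 17, 20 and 23, the block, and the comparisons of 4 and 24 h with 0 h, were chosen after seeing the data.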
